A study of Mus musculus with 8 samples.

Results

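The urea cycle and the handling of ammonia were followed through 9 genes, Cps1, Otc, Ass1, Asl, Arg1, Nags, Slc25a13, Slc25a15 and Gls2, out of 52636 genes counted in mouse liver. The members are set by name, by a list drawn up with earlier results of these data known, and each matched 1 Ensembl identifier on GRCm38. The 8 animals were male C57BL/6J mice injected at 7 weeks of age with AAV8, an adeno-associated virus that infects hepatocytes, and fed the high-fat, high-cholesterol, high-fructose MASH diet (called a NASH diet in the sample labels) for 24 weeks from 8 weeks of age. In 4 mice the virus carried human AGXT, the peroxisomal enzyme that turns glyoxylate into glycine, and in 4 control mice it carried GFP, both under the TBG promoter, which is active in hepatocytes. Every animal of both groups was therefore on the diet and carried a virus, and no chow-fed or uninjected liver was analysed here.

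Ammonia set free by the breakdown of amino acids is toxic, and the liver turns it into urea in a cycle that starts in the mitochondria of hepatocytes and ends in the cytosol. Nags makes N-acetylglutamate, the activator that Cps1 needs in order to join ammonia and bicarbonate into carbamoyl phosphate. Otc transfers this group to ornithine, Ass1 joins the resulting citrulline to aspartate, Asl splits the product, and Arg1 releases urea and gives ornithine back. Slc25a15 exchanges ornithine and citrulline across the inner mitochondrial membrane, Slc25a13 exports aspartate for Ass1, and Gls2 frees ammonia from glutamine beside Cps1. In the liver lobule these genes are best known from the hepatocytes around the portal vein, whereas hepatocytes around the central vein bind leftover ammonia into glutamine.

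Of the 9 genes, 5 rose in mice treated with AAV8-AGXT (Cps1, Asl, Arg1, Slc25a13 and Slc25a15), none fell, and 4 did not pass the test (Otc, Ass1, Nags and Gls2). A gene was called to have changed at an adjusted p under 0.05 in edgeR's quasi-likelihood test, adjusted by Benjamini-Hochberg over all 15248 genes tested, and by this rule 4.35% of all genes tested changed, 2.45% rising and 1.9% falling. The rises lay between 1.54-fold for Arg1 and 1.94-fold for Cps1. The median log2 fold change of the 9 genes was 0.62, against 0.018 over all genes tested, and all 9 means were higher in the AAV8-AGXT group. At an unadjusted p under 0.05, 5 were higher and 0 lower, where 13.5% of all genes tested were higher and 12.6% lower. By DESeq2 5 rose and 0 fell, where 7.06% of all genes tested rose and 6.91% fell. The call depended on single animals, because 0 of the 9 genes were called without AAV8-GFP mouse 311, without AAV8-GFP mouse 314 or without AAV8-AGXT mouse 319. All 9 differences stayed positive in each of these 3 fits. The loss was not particular to the 9 genes. Over all genes tested, 374 rose and 290 fell with all mice. These counts were 2 and 0 without 311, 11 and 4 without 314, and 12 and 2 without 319. Without mouse 303 the count of the 9 genes was 1, without 308 or 316 it was 2, without 315 it was 4, and without 309 it was 5. In these 5 fits 114, 86, 226, 304 and 379 of all genes rose (without 303, 308, 316, 315 and 309).

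Values are given as CPM, the counts of a gene relative to the size of its library, with library sizes scaled by TMM. Values are listed with GFP mice in the order 303, 311, 314 and 315, AGXT mice in the order 308, 309, 316 and 319, and group means ± SD (n = 4 each). Log2 fold changes compare AAV8-AGXT with AAV8-GFP and are given ± their standard error. Each library had 17095433 to 28780140 read pairs on genes, and the 9 genes held between 737 and 33022 read pairs each in every mouse, so that the spread between animals and not counting error set the precision. The mouse Agxt row was higher in AAV8-AGXT mice (164 ± 15.8 to 305 ± 98.3 CPM, log2 fold change 0.90 ± 0.22, adjusted p = 0.0489 by edgeR), with no overlap between groups and a call in 1 of the 8 fits without a mouse. This row was called in 3 of 9 other settings with all mice. Mouse transcript and reads of the human transgene cannot be told apart there. The share of read pairs counted on genes was 65.6 ± 2.53% in the GFP group and 61.5 ± 3.61% in the AGXT group, lowest in AGXT mouse 308 (56.3%), and its part in the results was not tested. In bulk liver, fewer cells of a type and less RNA per cell cannot be told apart.

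Among the mitochondrial enzymes, Cps1 rose by the most of the 9 genes. Cps1, ENSMUSG00000025991 on chromosome 1 (67123026 to 67231259, plus strand, GRCm38), stood at 674, 612, 793 and 875 CPM in the GFP mice and at 1244, 1653, 1288 and 1558 CPM in the AGXT mice. Every AGXT mouse lay above every GFP mouse, and the highest value was that of mouse 309. The mean went from 739 ± 118 to 1436 ± 201 CPM, a log2 fold change of 0.96 ± 0.16 (adjusted p = 0.0279 by edgeR). Otc, the next enzyme of the cycle, ENSMUSG00000031173 on chromosome X (10252305 to 10321024, plus strand), stood at 182, 194, 236 and 306 CPM in the GFP mice and at 227, 338, 217 and 204 CPM in the AGXT mice. These groups overlapped, since 3 of the 4 AGXT mice lay below GFP mouse 315 and mouse 309 stood apart above the rest of its group. The Otc means were 229.8 ± 56.2 and 247 ± 61.6 CPM (log2 fold change 0.10 ± 0.21, adjusted p = 0.796 by edgeR), and the log2 fold change was -0.11 without mouse 309 and 0.28 without GFP mouse 315.

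Nags, ENSMUSG00000048217 on chromosome 11 (102145513 to 102149477, plus strand), stood at 50.7, 45.0, 50.3 and 56.7 CPM in the GFP mice and at 82.3, 44.3, 59.0 and 74.2 CPM in the AGXT mice. Of the AGXT mice 308, 316 and 319 lay above all GFP mice and 309 lay below all of them. The log2 fold change of 0.36 ± 0.18 did not pass the test (adjusted p = 0.23 by edgeR), and it was 0.21 without mouse 308. Of the exon bases of Nags, 443 are shared with the antisense gene Gm11586, and since the strand setting of the counting is not stated, reads of the pair cannot be told apart. Gm11586 itself held only 4 read pairs per mouse on average.

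To set enzymes and carriers against each other within each liver, 6 ratios of CPM were formed after the values had been seen, with an exact permutation test (two-sided) for each, in which 70 arrangements of the mice allow no p below 0.0286. The ratio of Cps1 to Otc, which is not corrected for length and is compared only between groups, averaged 3.25 in the GFP group and 5.90 in the AGXT group on the log scale (a difference of 0.86 in the log2 ratio). The ratio was higher in 4 of 4 AGXT mice than in any GFP mouse (exact p = 0.0286), and the p adjusted over the 6 ratios by Benjamini-Hochberg was 0.171. The differences of 4 other log2 ratios were 0.65 for Slc25a13 to Slc25a12, 0.47 for Asl to Ass1, 0.36 for Cps1 to Glul and -0.22 for Arg1 to Asl, with adjusted p between 0.214 and 0.286 in the exact permutation tests. No ratio passed the adjusted test, but the test could not have passed 1 ratio alone. A ratio that alone reached the lowest possible p of 0.0286 could have no adjusted p below 0.171. No conclusion is drawn from the exact or the adjusted p of any ratio.

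**Figure D1:**
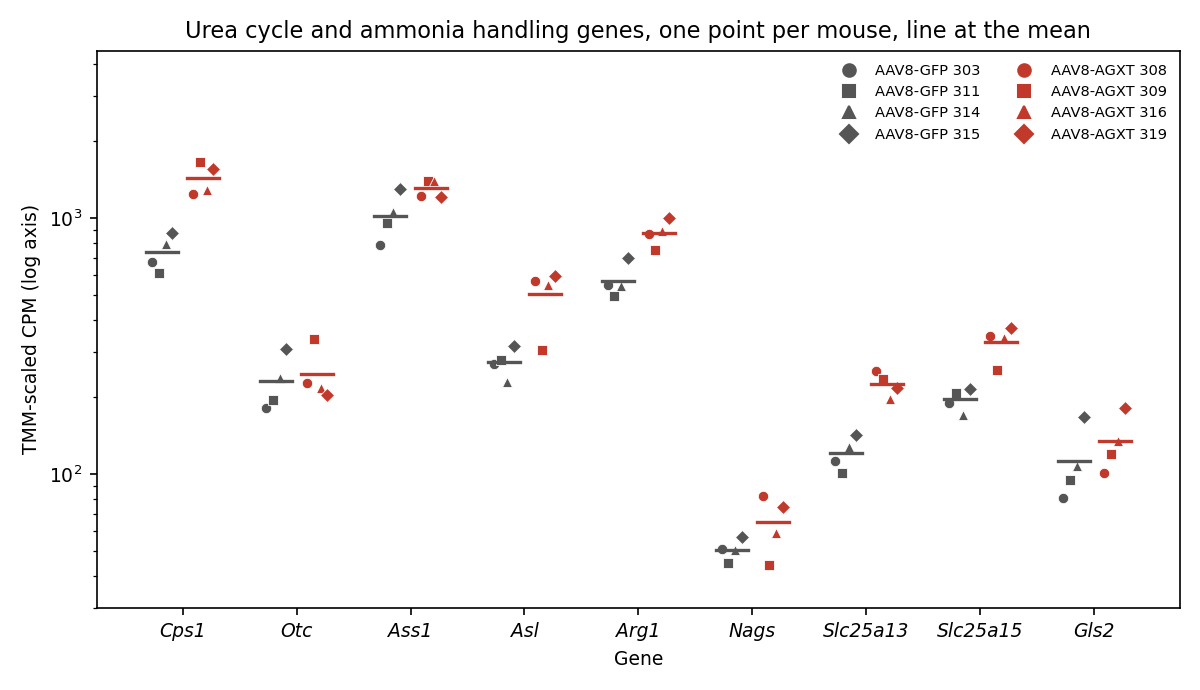
TMM-scaled CPM (log axis) of the 9 genes, with 1 point per mouse, grey for AAV8-GFP (4 mice), red for AAV8-AGXT (4 mice), marker shapes for single animals and a line at each group mean. For Cps1, Arg1, Slc25a13 and Slc25a15 all red points lie above all grey points, whereas for Otc, Ass1, Asl, Nags and Gls2 the groups overlap.

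Of the 3 cytosolic enzymes, Asl and Arg1 rose and Ass1 did not pass the test. Ass1, which joins citrulline to aspartate, ENSMUSG00000076441 on chromosome 2 (31470207 to 31520672, plus strand), stood at 786, 955, 1054 and 1293 CPM in the GFP mice and at 1222, 1397, 1390.0 and 1206 CPM in the AGXT mice. The 2 lowest AGXT mice, 319 and 308, lay below GFP mouse 315 and above the other 3 GFP mice. The mean went from 1022 ± 212 to 1304 ± 104 CPM (log2 fold change 0.35 ± 0.17, adjusted p = 0.211 by edgeR).

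Asl, the lyase that splits argininosuccinate, ENSMUSG00000025533 on chromosome 5 (130011258 to 130029247, minus strand), stood at 268, 279, 229 and 317 CPM in the GFP mice and at 568, 306, 548 and 593 CPM in the AGXT mice. Mice 308, 316 and 319 were well above the GFP group, but mouse 309 lay within it, below GFP mouse 315. The mean went from 273 ± 36.1 to 504 ± 133 CPM, a log2 fold change of 0.88 ± 0.21 (adjusted p = 0.0465 by edgeR). Arg1, the arginase that releases urea, ENSMUSG00000019987 on chromosome 10 (24915221 to 24927484, minus strand), stood at 547, 494, 542 and 696 CPM in the GFP mice and at 867, 749.6, 888 and 999 CPM in the AGXT mice. The groups did not overlap, with AGXT mouse 309 just above GFP mouse 315. The log2 fold change was 0.62 ± 0.15 (adjusted p = 0.049 by edgeR), close to the threshold for a call. Both Asl and Arg1 lost their call with upper-quartile factors, with total counts and with scaling by hepatocyte secretory genes.

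Both mitochondrial carriers rose. Slc25a15, the ornithine carrier, ENSMUSG00000031482 on chromosome 8 (22375551 to 22398597, minus strand), stood at 189, 208, 170.3 and 214 CPM in the GFP mice and at 345, 255, 339 and 373 CPM in the AGXT mice. The groups did not overlap, and mouse 309 was the lowest of the AGXT group. The mean went from 195 ± 19.7 to 328 ± 50.7 CPM, a log2 fold change of 0.75 ± 0.14 (adjusted p = 0.0344 by edgeR). Slc25a13, the aspartate and glutamate carrier known as citrin, ENSMUSG00000015112 on chromosome 6 (6041218 to 6217173, minus strand), stood at 113, 101, 128 and 142 CPM in the GFP mice and at 252, 235, 195 and 218 CPM in the AGXT mice. The groups did not overlap, and here mouse 309 was among the higher AGXT mice. The mean went from 121 ± 17.9 to 225 ± 24.3 CPM, a log2 fold change of 0.90 ± 0.14 and the smallest adjusted p of the 9 genes (0.0246 by edgeR). Slc25a12, the paralog of Slc25a13 that is best known from brain and muscle, did not pass the test (means of 12.2 and 14.5 CPM, adjusted p = 0.347 by edgeR).

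The 250 bases before the transcription start are shown for the 2 carriers, which both rose, and for Otc, the gene with the smallest difference, so that the upstream sequence of genes that did and did not change can be read side by side. The sequences are those of RefSeq on GRCm38.p6, read from 5′ to 3′ on the strand of the gene, and 5 of the 9 genes matched, with 2 starts for Slc25a15. Cps1, Asl, Arg1 and Gls2 had no match. Capitals mark matches, on either strand, to any of 6 motifs: the TATA box (TATAAA), the CCAAT box (CCAAT), the GC box (GGGCGG), a cAMP-response motif (TGACG), a C/EBP motif (TTNNGCAA) and a glucocorticoid receptor motif (TGTTCT).
Slc25a13 (chr6:6217174-6217423, minus strand): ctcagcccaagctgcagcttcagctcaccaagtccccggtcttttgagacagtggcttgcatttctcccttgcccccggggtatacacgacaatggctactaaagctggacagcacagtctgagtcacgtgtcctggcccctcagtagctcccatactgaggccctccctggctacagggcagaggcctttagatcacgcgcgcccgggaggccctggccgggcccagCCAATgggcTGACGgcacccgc
Slc25a15, inner start (chr8:22398278-22398527, minus strand): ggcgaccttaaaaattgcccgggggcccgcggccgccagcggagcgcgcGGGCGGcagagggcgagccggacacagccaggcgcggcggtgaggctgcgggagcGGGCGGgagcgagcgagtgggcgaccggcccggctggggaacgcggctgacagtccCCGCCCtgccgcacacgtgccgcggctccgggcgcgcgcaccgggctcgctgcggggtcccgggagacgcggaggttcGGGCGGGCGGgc
Slc25a15, outer start (chr8:22398622-22398871, minus strand): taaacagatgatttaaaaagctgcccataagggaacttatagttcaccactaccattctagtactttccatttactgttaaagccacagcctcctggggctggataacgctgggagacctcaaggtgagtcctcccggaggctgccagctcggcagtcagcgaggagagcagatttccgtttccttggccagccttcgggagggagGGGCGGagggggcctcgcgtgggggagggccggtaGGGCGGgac
Otc (chrX:10252055-10252304, plus strand): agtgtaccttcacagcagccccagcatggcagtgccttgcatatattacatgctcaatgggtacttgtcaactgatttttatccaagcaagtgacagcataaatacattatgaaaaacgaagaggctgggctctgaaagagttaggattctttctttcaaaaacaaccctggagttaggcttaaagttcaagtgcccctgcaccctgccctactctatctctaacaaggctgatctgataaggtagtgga

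The window of Slc25a13 held a CCAAT box and a TGACG motif close to the start, motifs found in 33.8% and 17.7% of all 32817 promoter windows of the same length. The windows of Slc25a15 held 5 GC boxes at the inner start, 2 of which share bases, and 2 at the outer start, a motif found in 32.7% of all windows. The window of Otc held none of the 6 motifs, which says only that these letters are not in it. The other matched genes, Ass1 and Nags, held 1 and 2 GC boxes. The GC content was 62.8% for Slc25a13, 80.4% and 57.6% for the inner and outer windows of Slc25a15 and 43.6% for Otc, against a mean of 53.2% over all windows. TATAAA, TTNNGCAA and TGTTCT, found in 12.4%, 9.57% and 16.1% of all windows, were in none of the 6 windows of the matched genes.

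Gls2, the liver-type glutaminase, ENSMUSG00000044005 on chromosome 10 (128194457 to 128210004, plus strand), stood at 80.3, 94.8, 108 and 167 CPM in the GFP mice and at 101, 120.1, 134 and 181 CPM in the AGXT mice. The groups overlapped widely, with the highest mouse of each group, 315 and 319, well above the other mice of its group. The log2 fold change of 0.25 ± 0.24 did not pass the test (adjusted p = 0.543 by edgeR), and the coefficient of variation among GFP mice was 34.0%, the highest of the 9 genes in that group. The log2 fold change was 0.51 without GFP mouse 315, 0.17 without 311, 0.12 without 303 and 0.077 without AGXT mouse 319. Gls2 shares 97 exon bases with Spryd4 on the opposite strand.

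The groups did not overlap for 4 of the 9 genes (Cps1, Arg1, Slc25a13 and Slc25a15), all with AAV8-AGXT above, against 8.93% of all genes tested with AAV8-AGXT above and 7.63% with it below (16.6% in all). GFP mouse 315 was the highest of its group for 9 of the 9 genes, and the lowest place was held by 311 for 4 genes, by 303 for 3 and by 314 for 2. In the AGXT group no animal led throughout, since 319 was the highest for 4 genes, 309 for 3 (Cps1, Otc and Ass1) and 308 for 2. Mouse 309 was also the lowest of its group for 4 genes (Asl, Arg1, Nags and Slc25a15), so that it stood at the top for some steps of the cycle and at the bottom for others.

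**Figure D2:**
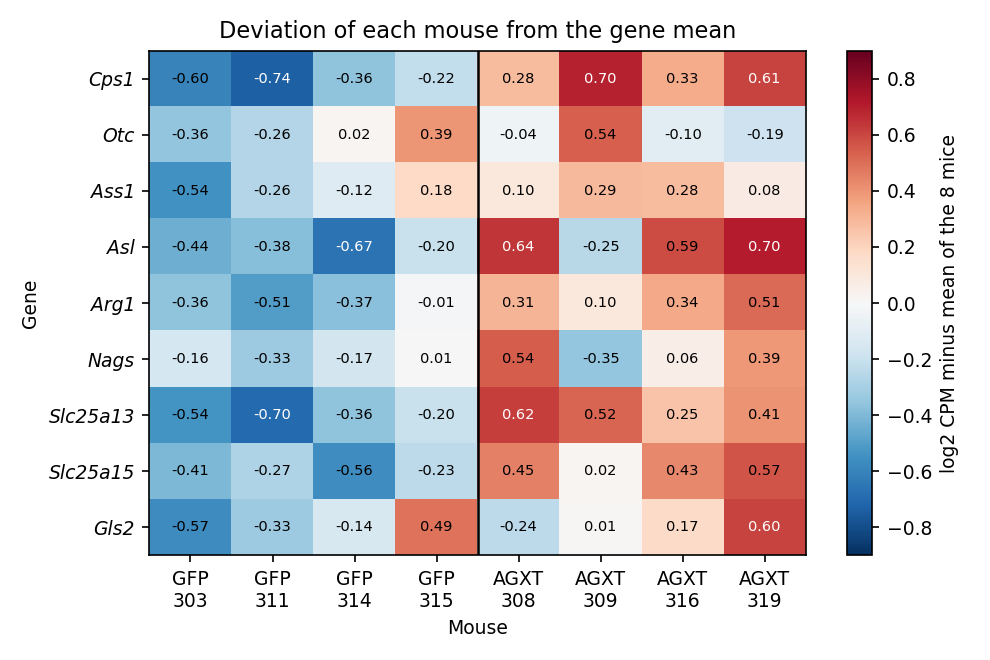
Deviation of each mouse from the mean of the 8 mice, in log2 CPM, with the 9 genes as rows, the 4 AAV8-GFP mice on the left and the 4 AAV8-AGXT mice on the right. GFP mice 303 and 311 are below the mean for all 9 genes, GFP mouse 315 is the highest of its group in every row, and AGXT mouse 309 is above the mean for Cps1 and Otc and below it for Asl and Nags.

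Per kilobase of exon, which allows genes to be compared, Ass1 had the highest level in the GFP group (423 ± 87.8 CPM per kilobase), followed by Arg1 (256 ± 39.2) and Cps1 (133 ± 21.2). Each of these lay above the next gene in the order in every mouse of the group. Asl (56.6 ± 7.48) and Otc (54.2 ± 13.3) overlapped, then Slc25a15 (34.7 ± 3.5), Gls2 (32.4 ± 11) and Slc25a13 (31.9 ± 4.71) overlapped, and Nags was the lowest (17.9 ± 1.69). In the AGXT group the same 3 genes led in the same order, at 540.1 ± 43.1, 393 ± 45.8 and 258 ± 36.2 CPM per kilobase. Asl came next (104 ± 27.5), its range reaching into that of Slc25a13 (59.3 ± 6.39), and Gls2 (38.6 ± 9.84) and Nags (22.9 ± 5.93) were again low. Slc25a13 and Slc25a15 (58.3 ± 9.02) overlapped with Otc (58.1 ± 14.5), while both carriers had been below Otc in every GFP mouse.

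Summed over the 9 genes, the level was 2890.5, 2984, 3310.4 and 4067 CPM in the GFP mice and 4908, 5099, 5059 and 5405 CPM in the AGXT mice. The lowest AGXT mouse thus lay above the highest GFP mouse. The mean went from 3313 ± 534 to 5118 ± 209 CPM, a ratio of 1.54. The mean makeup of the sum differed too, without a test, as Cps1 held 22.3 ± 1.59% of it in the GFP group and 28.0 ± 3.36% in the AGXT group. Ass1 held 30.7 ± 2.35% and 25.5 ± 2.46%, and Otc 6.87 ± 0.57% and 4.83 ± 1.25%, but the shares of Ass1 and of Otc overlapped between the groups. Set against the summed level of 15 secretory genes of hepatocytes such as albumin, the 9 genes came to 3.85, 4.10, 3.78 and 4.74% in the GFP mice and to 4.44, 5.61, 6.05 and 4.73% in the AGXT mice. On this scale the groups overlapped, and the ratio of the means was 1.26.

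The fold changes under that second scaling show how much of the size of the differences rests on what the levels are set against. When libraries were scaled by the hepatocyte secretory genes in place of TMM, the median over all genes tested was -0.28, and the log2 fold changes of the 9 genes moved down by a similar amount. Cps1 (0.67) and Slc25a13 (0.61) were still called, whereas Slc25a15 (0.44, adjusted p = 0.103 by edgeR), Asl (0.57) and Arg1 (0.32) were not. Otc (-0.16) and Gls2 (-0.048) then had the opposite sign, but both lay above the median of all genes. With total counts and no composition factor, where the median of all genes was -0.22, 3 of the 9 genes were called and Otc was at -0.12.

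**Figure D3:**
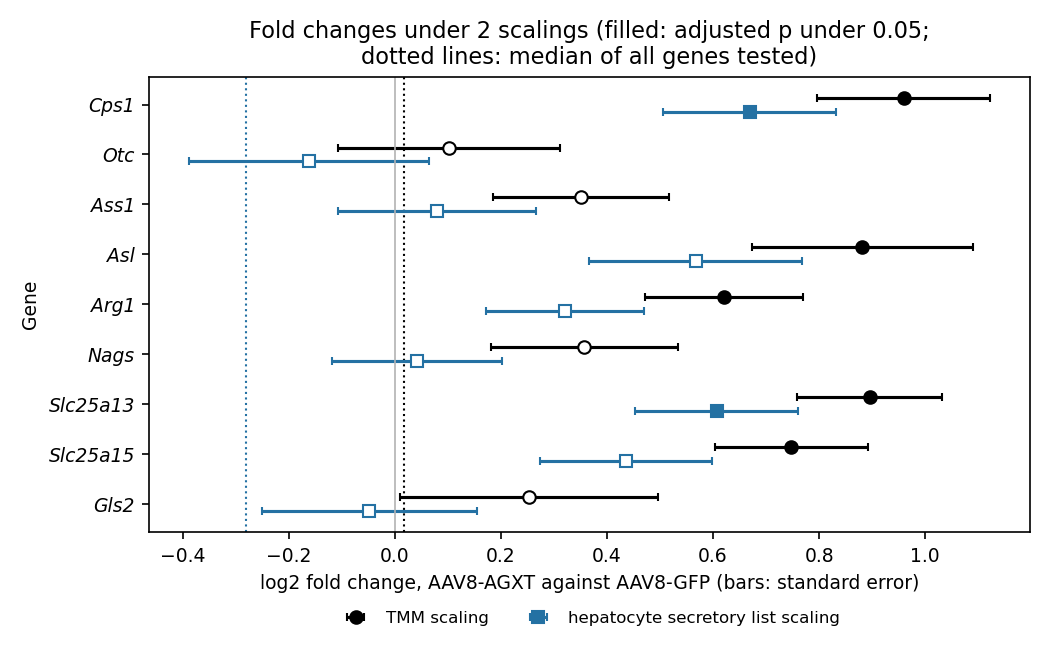
Log2 fold change of the 9 genes in AAV8-AGXT against AAV8-GFP mice (4 against 4), with bars for the standard error, under TMM scaling (black circles) and under scaling by the hepatocyte secretory genes (blue squares), filled where the adjusted p was under 0.05, and dotted lines at the median of all genes tested. Under TMM 5 genes are filled, under the other scaling only Cps1 and Slc25a13, and all 9 genes lie to the right of the dotted line of their own scaling.

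Genes that work beside the cycle, 23 in all and 20 of them tested, gave 7 that rose and 0 that fell, with a median log2 fold change of 0.56 and 18 means higher in AAV8-AGXT mice. At an unadjusted p under 0.05 these counts were 13 and 1 (13.5% and 12.6% of all genes tested), and by DESeq2 11 and 1 (7.06% and 6.91%). Oat, the ornithine aminotransferase that links ornithine to glutamate, stood at 1079, 698, 709 and 724 CPM in the GFP mice and at 2696, 1472, 2353 and 2464 CPM in the AGXT mice. All AGXT mice lay above all GFP mice, and the log2 fold change was 1.48 ± 0.22 (adjusted p = 0.0246 by edgeR). Slc1a2, a glutamate transporter of the hepatocytes around the central vein, rose from 146 ± 34.7 to 379 ± 80.3 CPM (log2 fold change 1.37 ± 0.21), with no overlap. Slc38a3, which carries glutamine across the cell membrane, rose from 853 ± 110.1 to 1603 ± 358 CPM (log2 fold change 0.91 ± 0.19), again with no overlap.

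Got1, the cytosolic aspartate aminotransferase, rose from 94.2 ± 12.6 to 206 ± 81.3 CPM (log2 fold change 1.13 ± 0.24), with AGXT mouse 316 at 327 CPM and the other AGXT mice between 152 and 175 CPM. Car5a, the mitochondrial carbonic anhydrase that supplies bicarbonate to Cps1, rose from 11.2 ± 2.18 to 23.2 ± 3.95 CPM (log2 fold change 1.05 ± 0.17). Car5a shares 314 exon bases with BC048644 on the opposite strand. Aqp9, an aquaglyceroporin that also passes urea, and Sirt3, a mitochondrial deacetylase, rose by 0.58 and 0.48 on the log2 scale, and Sirt3 shares exon bases with Ric8a and Psmd13. The groups of these 4 genes did not overlap, and the adjusted p of the 7 called genes lay between 0.0246 and 0.0374 by edgeR. Without AAV8-GFP mouse 311 none of the 7 was called (adjusted p between 0.115 and 0.138 by edgeR). Of the 8 fits without a mouse, Oat, Slc1a2 and Car5a were called in 5 each, Got1, Aqp9 and Sirt3 in 3 each and Slc38a3 in 2. With scaling by the hepatocyte secretory genes Oat, Slc1a2 and Car5a were still called. Under it Aqp9 (log2 fold change 0.28, adjusted p = 0.229 by edgeR), Sirt3 (0.17, adjusted p = 0.405), Got1 (0.86, adjusted p = 0.0793) and Slc38a3 (0.60, adjusted p = 0.0532) were not. Aqp9, Sirt3 and Got1 also lost their call with total counts.

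Glul, glutamine synthetase, which binds the ammonia that the cycle leaves, stood at 1989.6, 1413, 1313 and 1217 CPM in the GFP mice and at 2277, 1871, 2442 and 2299.7 CPM in the AGXT mice. GFP mouse 303 lay above AGXT mouse 309, so that the groups overlapped, and the log2 fold change of 0.58 ± 0.18 did not pass the test (adjusted p = 0.0846 by edgeR), whereas DESeq2 called it (adjusted p = 0.0179). Glud1, glutamate dehydrogenase, was at 777 ± 146 and 784 ± 102 CPM, a difference far within the spread between animals (adjusted p = 0.973 by edgeR). The paralogs Arg2 and Slc25a2 and the urea transporter Slc14a1 were too low to be tested, with at most 14, 13 and 10 read pairs in any mouse.

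Enzymes of amino acid breakdown, not all of which release ammonia or amino groups themselves, were read as a list of 17. Of the 15 tested, 1 rose and 0 fell, with a median log2 fold change of 0.33. At an unadjusted p under 0.05, 4 were higher and 0 lower, against 13.5% and 12.6% of all genes tested, and by DESeq2 2 rose and 0 fell, against 7.06% and 6.91%. Prodh, the mitochondrial proline dehydrogenase, rose from 129 ± 18.5 to 229 ± 50.6 CPM (log2 fold change 0.83 ± 0.18, adjusted p = 0.0413 by edgeR). Hal, histidine ammonia-lyase, went from 104 ± 40.3 to 176 ± 56.2 CPM, but GFP mouse 315, at 164 CPM, lay above 3 of the 4 AGXT mice (adjusted p = 0.126 by edgeR, and 0.0448 without that mouse). That was the only call of Hal in the 8 fits without a mouse, and its adjusted p was 0.299 by edgeR without mouse 311. With all mice Hal was called in 0 of 9 other settings. Sds, serine dehydratase, had values between 37.9 and 112 CPM in GFP mice and between 62.6 and 147 CPM in AGXT mice and did not pass the test (adjusted p = 0.335 by edgeR).

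Of 14 transcription factors, receptors and coactivators known to act on urea cycle genes, 3 rose and 0 fell, with a median log2 fold change of 0.37. There were 5 higher and 1 lower at an unadjusted p under 0.05, and 4 higher and 0 lower by DESeq2 (with the same shares of all genes). Cebpa, a factor of hepatocyte identity, stood at 351, 349.9, 334 and 375 CPM in the GFP mice and at 512, 537, 445 and 504 CPM in the AGXT mice, with no overlap (log2 fold change 0.50 ± 0.11, adjusted p = 0.0429 by edgeR). Creb3l3, a factor of the fasting liver that is released from the endoplasmic reticulum, rose from 396 ± 47.1 to 645 ± 135 CPM (log2 fold change 0.70 ± 0.17, adjusted p = 0.0486 by edgeR). Ppara, the fatty acid receptor PPARα, rose from 43.3 ± 5.06 to 80.1 ± 22.1 CPM (log2 fold change 0.89 ± 0.19, adjusted p = 0.0376 by edgeR). Prodh and these 3 regulators were not called without mouse 311 either (adjusted p between 0.137 and 0.157 by edgeR). Of the 8 fits without a mouse, Prodh and Ppara were called in 2 each, and Cebpa and Creb3l3 in 1 each. With scaling by the hepatocyte secretory genes Ppara was still called, at a log2 fold change of 0.56. Under it Cebpa (0.20, adjusted p = 0.377 by edgeR), Creb3l3 (0.39, adjusted p = 0.156) and Prodh (0.51, adjusted p = 0.0829) were not, nor were these 3 with total counts. Hnf4a, the receptor that marks hepatocytes, did not pass the test while its groups did not overlap (551 ± 61.9 to 758 ± 73.9 CPM, adjusted p = 0.0765 by edgeR), and DESeq2 called it (adjusted p = 0.00651).

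Hepatocytes differ along the lobule, and markers of both ends were read beside the urea cycle genes and the same shares of all genes, with some genes of the lists above among them (Hal, Sds, Gldc and Uroc1 at the portal end, Glul, Oat, Slc1a2 and Rhbg at the central end). Of 11 markers of the hepatocytes around the portal vein, 0 rose and 0 fell by edgeR and by DESeq2 (2 rose and 0 fell at an unadjusted p under 0.05), with a median log2 fold change of 0.14. Their summed level overlapped between the groups, at 3530 to 6662 CPM in GFP mice and 5596 to 7348 CPM in AGXT mice. GFP mouse 315, the highest of its group for the urea cycle genes, was the highest of its group here as well. Of 13 markers of the hepatocytes around the central vein, 3 rose (Oat, Slc1a2 and Cyp2e1) and 0 fell by edgeR, 8 rose and 0 fell both at an unadjusted p under 0.05 and by DESeq2, and the median log2 fold change was 0.58. Cyp2e1, a cytochrome P450, rose from a mean of 5449.7 to 12061 CPM (log2 fold change 1.15 ± 0.16). The summed level of these markers did not overlap, at 8449 to 10392 CPM in GFP mice and 16476 to 21724 CPM in AGXT mice. Most of this sum, with means of 9047 and 18604 CPM, was Cyp2e1. Taken singly, 5 of the 13 markers had AGXT mice all above GFP mice (8.93% of all genes tested), and 10 of the 13 were not called by edgeR.

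Markers of other liver cells were read as well, against 13.5% of all genes higher and 12.6% lower at an unadjusted p under 0.05 and 7.06% higher and 6.91% lower by DESeq2. The summed level of 9 stellate cell and fibroblast markers was 537 to 953 CPM in GFP mice and 214 to 592 CPM in AGXT mice, and 2 of them fell (Acta2 and Timp1, log2 fold changes -0.99 ± 0.22 and -2.29 ± 0.52), while 0 rose. At an unadjusted p under 0.05, 7 were lower and 0 higher, and by DESeq2 3 fell and 0 rose. The adjusted p was 0.0427 for Acta2 and 0.0444 for Timp1 by edgeR. Acta2 was called in 0 of the 8 fits without a mouse and not by limma-voom (adjusted p = 0.0622). Timp1 was called in 2 of the 8. The sum of 6 cholangiocyte markers was 226 to 679 CPM in GFP mice and 75.3 to 275 CPM in AGXT mice, with 0 called in either direction by edgeR, 6 lower at an unadjusted p under 0.05 and 4 lower by DESeq2. Most of that sum was Spp1, with means of 484 and 157 CPM against 537 and 181 CPM for the sum. The sum of 10 macrophage markers was 648 to 1119 CPM and 281 to 962 CPM, and these 3 sums all overlapped between the groups. Of the macrophage markers 1 rose (Cd163) and 0 fell by edgeR, and 3 were lower both at an unadjusted p under 0.05 and by DESeq2. The summed levels of 7 endothelial markers (210.0 to 331 CPM and 201 to 381 CPM), 8 lymphocyte markers (14.2 to 20.9 CPM and 6.70 to 14.8 CPM) and the 3 neutrophil markers tested (20.02 to 31.7 CPM and 6.70 to 21.4 CPM) overlapped. No gene of these 3 lists was called by edgeR. At an unadjusted p under 0.05, and by DESeq2, 0 endothelial, 2 lymphocyte and 1 neutrophil genes were lower and 0 higher. GFP mouse 315 had the lowest summed stellate cell and cholangiocyte markers of its group, and AGXT mouse 308 the lowest of its own. The 15 secretory genes of hepatocytes, which check the tissue, summed to 72842 to 87573 CPM in GFP mice and to 83679 to 114210 CPM in AGXT mice, with 0 called by edgeR, 5 higher at an unadjusted p under 0.05 and 4 higher by DESeq2. Their part in the difference of the urea cycle genes was not tested.

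**Figure D4:**
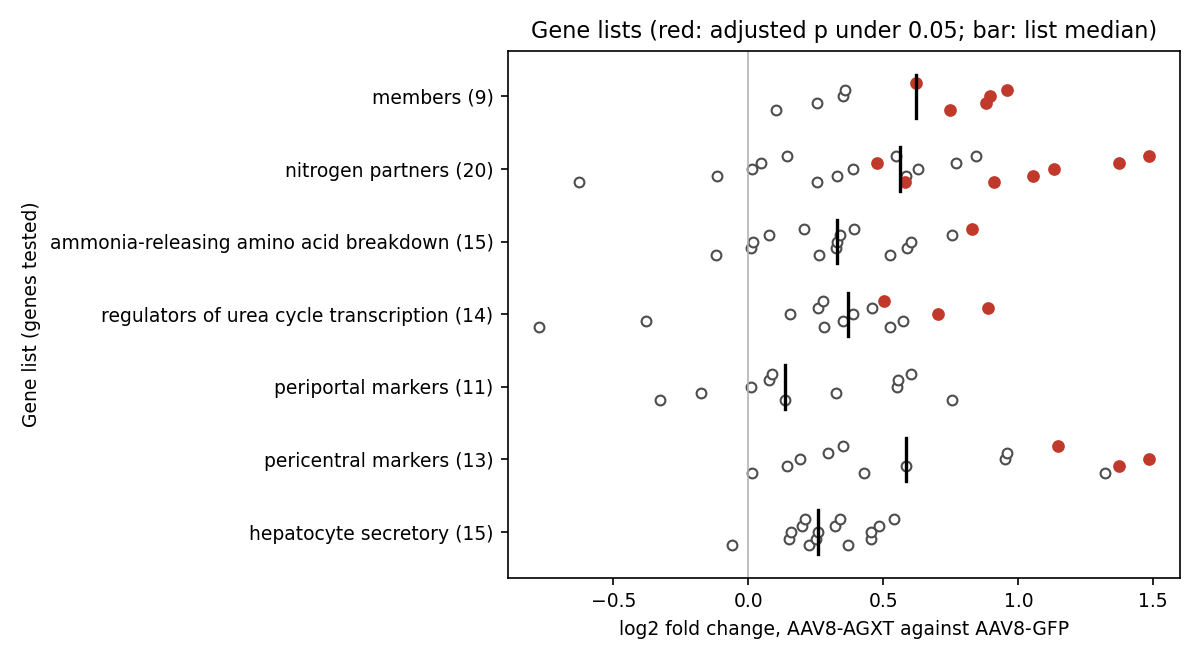
Log2 fold change in AAV8-AGXT against AAV8-GFP mice for each tested gene of 7 lists, with 1 circle per gene, filled red where the adjusted p was under 0.05, and a bar at the median of the list. The medians of the 9 urea cycle genes (0.62), the nitrogen partners (0.56) and the markers around the central vein (0.58) lie to the right of those of the markers around the portal vein (0.14) and the hepatocyte secretory genes (0.26).

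The cycle is also known to respond to fasting, glucagon and diet. Of 9 genes of the fasting and glucagon response, 1 rose (Cpt1a, which takes fatty acids into mitochondria, log2 fold change 0.73 ± 0.15) and 0 fell by edgeR, with a median of 0.25. At an unadjusted p under 0.05, 3 were higher and 0 lower (13.5% and 12.6% of all genes tested), and by DESeq2 2 rose and 0 fell (7.06% and 6.91%). Cpt1a was called in 2 of the 8 fits without a mouse, and it lost its call with total counts and with the hepatocyte scaling (log2 fold change 0.42, adjusted p = 0.108 by edgeR). Of 8 genes that are high in the fed state, 0 rose and 0 fell by edgeR, 4 were lower at an unadjusted p under 0.05 (12.6% of all genes) and 4 fell by DESeq2 (6.91% of all genes), with a median log2 fold change of -0.30.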

How the data were processed

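RNA sequencing of 8 livers, 1 library per mouse, was analysed. According to the paper and the processing notes, the authors used FastQC 0.11.8, Trimmomatic 0.35, HISAT2 2.1.0.13 on GRCm38 and HTSeq, and tested with DESeq2. The deposited values are raw counts of read pairs for 52636 genes, whole numbers without normalization. Tallies of pairs on no gene were left out of totals and tests. Mice were grouped by the treatment in the labels, and no sample was left out. GENCODE M21, on the same build, named 52489 genes.

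In R 4.3.3, edgeR 4.0.16 was run over all genes (filterByExpr, TMM, quasi-likelihood test, treatment as the only term, Benjamini-Hochberg over 15248 genes). The standard error of a log2 fold change was its unshrunken coefficient over the root of the F statistic. Alternatives were DESeq2 1.42.0, limma 3.58.1 voom, robust estimation, 4 other scalings, 2 other filters on low counts and each mouse left out. On simulated data edgeR called 64 of 100 genes changed by 1 on the log2 scale and 3 of 100 changed by 0.5. Only these genes out of 15248 were changed in the simulation. The adjusted p depends on the share of genes that change, so these rates need not hold for the real data. The 9 genes, the lists and the rule for naming genes were chosen with earlier results of these data known. Named were the 9 genes, Agxt, called genes of the lists and the first genes of the nitrogen, ammonia and regulator lists, with the 5 genes nearest in profile. Acta2, Timp1, Cd163, Cpt1a and Spp1 were named after their values were seen. The result of 1 further listed gene, with its ratio, is not reported here, and it stayed in the counts and the adjustment.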

Additional observations from a re-analysis of the deposited data

Results flagged for a closer look

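Of 20 groups of 4 mice examined, 2 held an animal whose gap to its nearest neighbour was so large a share of the range of the group (0.834 and 0.843) that it passed Dixon's 95% critical value, which chance passes in about 1 of 20 groups. Both were AAV8-AGXT mouse 309. Its Otc level was 338 CPM, against 204 to 227 CPM in the other 3 AGXT mice. Its Asl level was 306 CPM, against 548 to 593 CPM in the other 3. The same liver was thus the highest of its group for 1 urea cycle enzyme and the lowest for another.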

How the results depend on the processing

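No paired analysis was possible because the animal numbers are not shared between the groups. Counts of genes that rose and fell were 374 and 290 by edgeR, 1077 and 1054 by DESeq2, 144 and 857 with total counts, and 84 and 866 with scaling by the hepatocyte secretory genes. Leaving out each mouse gave 2 to 379 genes that rose and 0 to 325 that fell, the lowest counts without AAV8-GFP mouse 311, where 2663 genes had an unadjusted p under 0.05. Of the 9 urea cycle genes, 5 rose under TMM, 3 with upper-quartile factors, 3 with total counts, 3 with at least 10 counts in every mouse and 2 with the hepatocyte scaling, and 0 to 5 with each mouse left out. Their summed level, at a log2 ratio of 0.63, was 0.40 with total counts and 0.34 with the hepatocyte scaling. Cps1 and Slc25a13 were called in 9 of 9 other settings with all mice, Slc25a15 in 8, Arg1 in 5 and Asl in 4. With each mouse left out in turn, Slc25a13 was called in 5 of 8 fits, Cps1 in 4, Slc25a15 and Arg1 in 2 and Asl in 1, and the highest adjusted p of each, between 0.108 and 0.170, came without mouse 311. Of 153 values of the 9 genes under alternatives, 113 kept direction and side of the threshold, 36 lost the call and 4 changed sign: Otc with total counts (-0.12), with the hepatocyte scaling (-0.16) and without mouse 309 (-0.11, with a range up to 0.28 over the mice left out), and Gls2 with the hepatocyte scaling (-0.048). Glud1, at 0.012 under TMM, was at -0.00035 by DESeq2, -0.00040 with DESeq2 size factors, -0.049 with upper-quartile factors, -0.22 with total counts, -0.29 with the hepatocyte scaling, -0.0081 without a filter, -0.026 with at least 10 counts, and -0.074 to 0.10 with each mouse left out. The cause of these changes was not tested.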

Other observations

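Of 8666 other genes with a mean of at least 10 CPM, the 5 whose profile over the 8 mice was nearest to the median profile of the 9 urea cycle genes were Fam160b1, Shmt1, Slco2b1, Igfbp4 and Endog, with root-mean-square differences between 0.076 and 0.086 in log2 CPM. Shmt1, the cytosolic serine hydroxymethyltransferase, went from 87.9 ± 12.6 to 133 ± 14.4 CPM (n = 4 each), and Slco2b1, an organic anion transporter, from 121 ± 16.5 to 175 ± 13.1 CPM. Fam160b1 went from 39.1 ± 3.74 to 57.9 ± 7.30 CPM. Igfbp4, a binding protein of insulin-like growth factors, was at 1211 ± 96.2 and 1745 ± 168 CPM, and Endog, a mitochondrial nuclease, at 13.2 ± 2.59 and 18.7 ± 2.87 CPM. Igfbp4 and Endog were not called (adjusted p = 0.0537 and 0.0933 by edgeR). The 9 urea cycle genes themselves differed from their median profile by 0.072 (Arg1) to 0.40 (Otc), most of them by more than these 5 genes. The likeness was measured over the same animals and is a description.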
